A study of Rattus norvegicus with 17 samples.

Results

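Hmox1 (ENSRNOG00000014117) codes for heme oxygenase-1, and its row in the deposited count table is the gene described here, 1 of 32494 genes in the table and 1 of the 15460 that passed the filter on low counts. The row was chosen by this identifier. Neither the count table nor the annotation used here pairs it with a symbol, so the name rests on the identifier alone. Hmox1 was counted in each of the 17 rats, at 72 to 5041 reads per rat.

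Heme oxygenase-1 is the inducible enzyme that opens the heme ring and releases biliverdin, carbon monoxide and iron. Biliverdin is then reduced to bilirubin, and the iron is held by ferritin or exported through ferroportin. In bruised spinal cord, red cells that leak from torn vessels are broken down in the tissue, and phagocytes that take up the cells or their hemoglobin are a known source of the enzyme. Its transcription is held down by BACH1, which heme releases from DNA, and is driven by NRF2, so that heme and oxidative stress both raise it. Astrocytes and microglia can also make it, whereas heme oxygenase-2, from a separate gene, is made constitutively in neurons.

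The 17 animals were female Sprague-Dawley rats of 10 to 12 weeks. SCI was made through a thoracic laminectomy, and the methods describe a laminectomy without contusion for some of the controls. After 72 h every rat had an electrode placed under isoflurane in the nucleus raphé magnus (NRM), a serotonergic nucleus of the lower brainstem. There were 4 rats with sham injury and an inactive electrode (group A), 3 with SCI, a moderate contusion, and an inactive electrode (group B), 3 with SCI and 2 h of stimulation (group C), 2 that had pimozide at 1 mg/kg, a blocker of 5-HT7 and dopamine D2 receptors, before stimulation of the injured animal (group D), and 5 with sham injury and stimulation (group E). Buprenorphine and gentamycin were given after surgery, and there was no group given pimozide without stimulation or injury. For group E the treatment labels say unstimulated, against the titles and the series design, which were followed. Each library came from 1 rat and mixed a cervical, a thoracic and a lumbar block of cord, so that a level of Hmox1 averages the lesion with cord far from it. In such tissue, more cells that make Hmox1 and more Hmox1 RNA per cell cannot be told apart. The rats had 9852873 to 14137717 counts on genes, and levels are given as CPM after TMM scaling (counts scaled to a common library total over the tested genes and adjusted for composition). None of the listed markers of neurons, glia and macrophages could be matched to an identifier, so the labelled tissue was not checked against them. Slc17a7, a vesicular glutamate transporter of neurons that stands on no list, had an identifier because the study singled it out as lowered by stimulation of injured rats. It was at 1.71 to 7.26 CPM in intact and 0.261 to 3.58 CPM in injured rats, with a log2(FC) of -1.58 (SE 0.306, edgeR adjusted p = 0.00059). The study did not flag it for injury alone, so this fall over the pooled injured groups does not measure injury by itself. The part of Slc17a7 in the level of Hmox1 was not tested.

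Hmox1 was far higher in every injured cord than in any intact one. The 4 rats of group A had 7.501, 10.35, 11.02 and 13.32 CPM. The 5 rats of group E had 9.10, 11.09, 11.12, 12.04 and 26.19 CPM. The intact rats thus lay close together at a low level, apart from rat 87 of group E, at 26.19 CPM. The 3 rats of group B had 117.6, 253.2 and 258.4 CPM. Those of group C had 108.6, 204.5 and 438.1 CPM, and the 2 rats of group D had 100.1 and 339.9 CPM. The injured groups overlapped one another almost completely, and each contained at least 1 rat near the bottom of the range and 1 well above it. Even the lowest injured rat had 3.82 times the level of the highest intact rat. Such a separation, with all 8 injured rats above all 9 intact rats, was met by 8.52% of the genes tested.

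**Figure D1:**
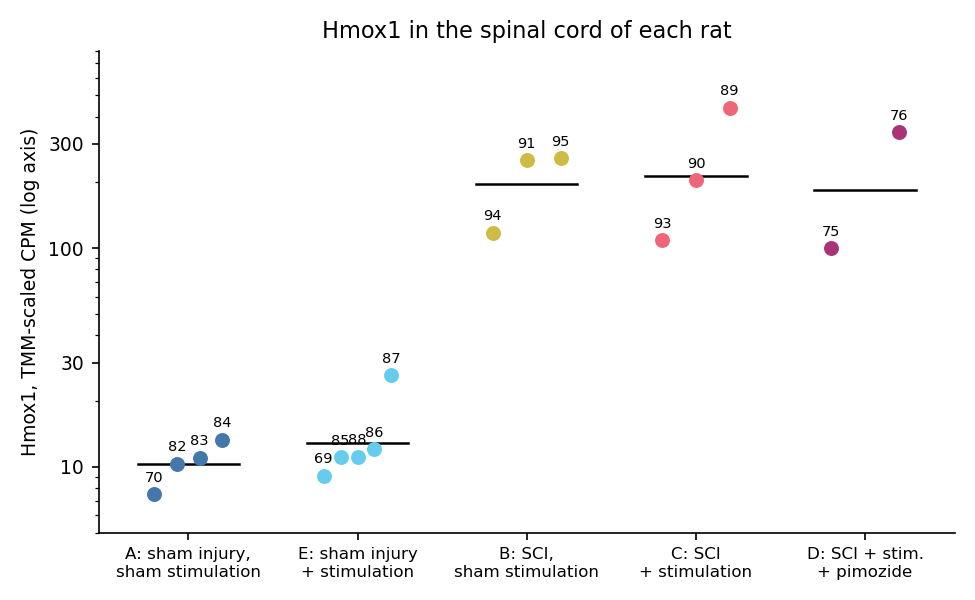
Hmox1 in TMM-scaled CPM on a log axis for each of the 17 rats, by group; numbers are the rats' numbers and horizontal lines are group means on the log2 scale. The 9 intact rats lie between 7.501 and 26.19 CPM and the 8 injured rats between 100.1 and 438.1 CPM.

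In the 3 contrasts of injured with intact rats that the study defines, Hmox1 rose by 4.18 to 4.57 on the log2 scale. The contrasts are named by the factor changed, with the constant background in parentheses. In ±SCI(0), which asks what injury alone does, the injured rats averaged 209.7 ± 79.8 CPM (SD, n = 3), against 10.55 ± 2.40 CPM (SD, n = 4) in the intact ones. The log2(FC) was 4.31 (SE 0.511, edgeR adjusted p = 4.2e-05, from the quasi-likelihood F test and the method of Benjamini and Hochberg), a 19.8-fold rise with a 95% interval from 9.39 to 41.9. Of all genes tested, 5.09% were called higher in this contrast (FDR below 0.05 and log2(FC) over 1), and only 9 of those 787 genes had a larger rise than Hmox1. The median rise of the genes called higher was 1.77 on the log2 scale.

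In ±st/SCI(0), injury with stimulation against neither, the mean was 250.4 ± 169 CPM (SD, n = 3) in group C. The log2(FC) was 4.57 (SE 0.513, edgeR adjusted p = 1.8e-05), a 23.7-fold rise, where 6.7% of genes were called higher and 14 of these rose more. In ±SCI(st), injury in stimulated rats, the log2(FC) over the 13.91 ± 6.95 CPM (SD, n = 5) of group E was 4.18 (SE 0.457, edgeR adjusted p = 9.9e-06), an 18.1-fold rise. Here 7.34% of genes were called higher and 26 of them rose more than Hmox1. The first 2 of these contrasts share group A and the last 2 share group C, so their values are not independent of one another. Without rat 89 of group C, which had the most Hmox1 of all, the fit moved the log2(FC) to 3.89 in ±st/SCI(0) and 3.51 in ±SCI(st), and both stayed called.

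With the 3 injured groups averaged against the 2 intact groups, Hmox1 rose by 4.22 on the log2 scale (SE 0.335, edgeR adjusted p = 7.8e-08), 18.7-fold with a 95% interval from 11.5 to 30.5. In this contrast 6.97% of genes were called higher, 19 of them with a larger rise, and 0.724% of all genes tested rose by more than 3. A 2-sided exact permutation test on log2(CPM + 0.5) gave p = 8.2e-05, which is the lower limit of that test with 8 and 9 rats. The rats' numbers fall in 2 series, 69 to 76 and 82 to 95, whose meaning the labels do not give. The difference in mean log2(CPM + 0.5) was 4.4 in the former, with 2 injured and 2 intact rats, and 3.94 in the latter, with 6 and 7.

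Stimulation did not move Hmox1 by an amount that could be told from the spread between rats. In ±st(SCI), group C against group B, the log2(FC) was 0.26 (SE 0.472, edgeR adjusted p = 1), with a 95% interval from -0.74 to 1.25. The interval holds both a fall to 0.599 of the level of group B and a rise to 2.38 times it. The rats of the 2 groups overlapped, since the highest and the lowest of these 6 rats, 89 and 93, both belonged to group C, and without rat 89 the log2(FC) was -0.42. This contrast had 0% of genes called by that edgeR test, with 476 genes at an unadjusted p under 0.05; DESeq2 called 0 and the exact test on the 2 groups alone 35.

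In ±st(0), group E against group A, the log2(FC) was 0.39 (SE 0.483, edgeR adjusted p = 0.87), with a 95% interval from -0.64 to 1.41. Rat 87 decided most of that value, as group E averaged 10.84 ± 1.24 CPM (SD, n = 4) without it and the log2(FC) was then 0.04. This contrast too had 0% of genes called by the edgeR test, against 1297 genes at an unadjusted p under 0.05, 15 called by DESeq2 and 24 by the exact test on the 2 groups alone. The interaction, (C - B) - (E - A), which compares the response to stimulation in injured and intact rats, was -0.13 on the log2 scale (SE 0.673, edgeR adjusted p = 1), with a 95% interval from -1.55 to 1.29.

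No difference in Hmox1 with pimozide before stimulation could be told from the spread between rats. In ±pim(st/SCI), group D against group C, the log2(FC) was -0.19 (SE 0.529, edgeR adjusted p = 0.96), with a 95% interval from -1.31 to 0.93. The 2 rats of group D differed 3.39-fold from each other, at 100.1 and 339.9 CPM, and the lower of them was below every rat of groups B and C, which spanned 108.6 to 438.1 CPM. The sign of the difference rested on single rats, at 0.44 without rat 75, -1.32 without rat 76 and 0.49 without rat 89 of group C. Group D lies wholly in the earlier number series and groups B and C wholly in the later, so that among injured rats pimozide and the series cannot be told apart. With a term for the series, which then rests on the intact rats, the log2(FC) was 0.48. Of the genes tested, 0.0259% were called in this contrast, which is 4 genes, against 32 by DESeq2 and 73 by the exact test on the 2 groups alone.

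Ordered by mean log2(CPM + 0.5), group C was highest at 7.74, followed by B at 7.63, D at 7.53, E at 3.74 and A at 3.44. For the neighbours C and B, B and D, and E and A no difference beyond the spread between rats was detected, with p = 1, 1 and 0.41 in 2-sided exact permutation tests. The smallest p these exact permutation tests allow is 0.1 for C and B, 0.2 for B and D and 0.016 for E and A, so that the first 2 could not have passed 0.05. The step from D to E was 3.79, where the 2 rats against 5 did not overlap and gave p = 0.095, the smallest value that this exact permutation test allows; 20.2% of genes were higher in D than in E without overlap. Of the 10 pairs of groups, edgeR's quasi-likelihood test called the 6 that cross from injured to intact rats, with log2(FC) from 3.93 to 4.57, and none of the other 4. In the 3 of these 6 not yet given, 7.47% of genes were called higher in D than in A, 5.6% in B than in E and 7.28% in D than in E, while 0.0194% of genes were called between D and B.

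**Figure D2:**
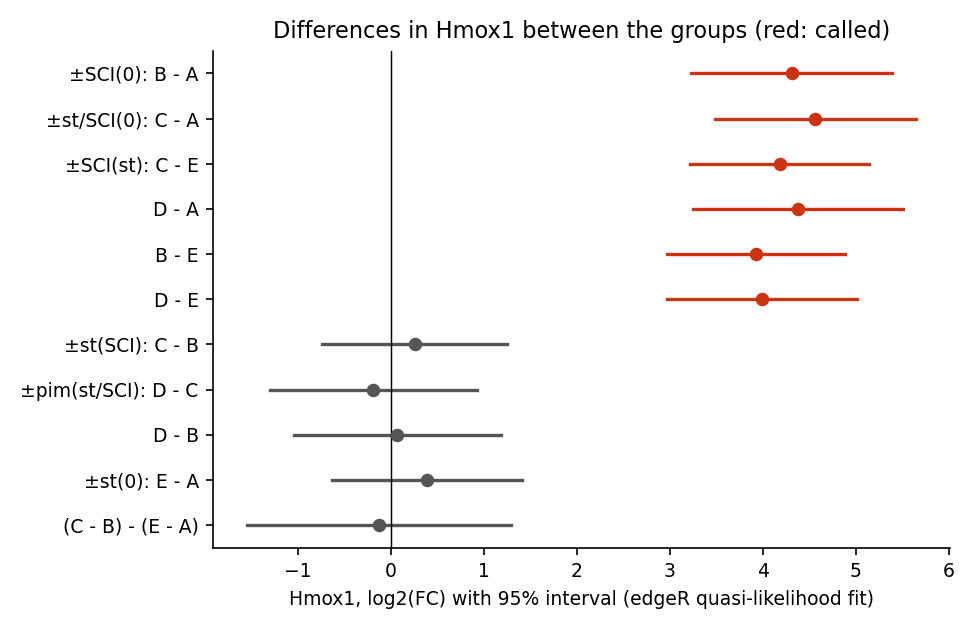
Log2(FC) of Hmox1 with its 95% interval for the 10 pairs of groups and the interaction, from the edgeR fit of all 17 rats; red marks a call (FDR below 0.05, log2(FC) beyond 1 in either direction). The 6 differences between an injured and an intact group lie at 3.93 to 4.57 and those within either kind of rat have intervals that include 0.

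Among the injured rats the level itself varied widely. Hmox1 spanned 100.1 to 438.1 CPM, a 4.37-fold range, and the SD within groups was 0.94 on the log2 scale, which only 0.834% of the genes tested exceeded. In intact rats the SD within groups was 0.48, exceeded by 3.57% of genes. That value rested on rat 87, without which it was 0.26 and exceeded by 23.1% of genes.

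The other genes raised by injury were highest in the injured rats with the most Hmox1 and lowest in those with the least. For each rat, this was measured as the median over the 1076 other genes called higher in injured than in intact rats, taken as log2(CPM + 0.5) less each gene's mean over the 8 injured rats, a measure chosen after the data were seen. It was highest in rats 89 and 76, at 0.64 and 0.58, which also had the most Hmox1, at 1.13 and 0.76 above its mean on the same scale. It was lowest in rats 93, 94 and 75, at -0.50, -0.42 and -0.22, which had the least Hmox1, at -0.88, -0.76 and -0.99. In rat 89, 92.7% of the 1076 genes were above their own mean, and in rat 93 only 6.13%. The order was not the same throughout, since rat 95, whose Hmox1 was 0.37 above its mean, had a median of -0.09 with 34.9% of the genes above their mean. The remaining rats, 91 and 90, had medians of 0.11 and -0.05 and Hmox1 at 0.34 and 0.03. The 3 low rats came from groups B, C and D and the 2 high rats from groups C and D, so that stimulated rats were among both. Hmox1 moved over a wider range than most of these genes, 2.12 on the log2 scale against a median of 1.44, and 13.2% of them had a larger range.

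Over the 8 injured rats Pearson's r between Hmox1 and this median was 0.911 (p = 0.0018 in an exact permutation test over pairings, adjusted p = 0.006 over the 5 such relations given). Spearman's rho was 0.857 (exact permutation p = 0.011, adjusted p = 0.027). Without rats 76 and 89, which lay farthest from the median, r was 0.83 with an exact permutation p of 0.06, so that it no longer passed the threshold. Over the 6 injured rats of the later number series r was 0.962 (exact permutation p = 0.0083), and the earlier series held only 2. For deviations from group means r was 0.977 (p = 0.028 by exact permutation within groups, adjusted p = 0.084 over 6 relations). In the 9 intact rats the same measure varied only from -0.15 to 0.10. There r was 0.576 (exact permutation p = 0.087, adjusted p = 0.14) and rho 0.55 (exact permutation p = 0.13, adjusted p = 0.22). The genes behind this measure were called in these same rats, by the rule that also called Hmox1. Most of them stood high together in rat 89 and low together in rat 93. No such r was computed for the other raised genes, so these values show no relation particular to Hmox1.

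**Figure D3:**
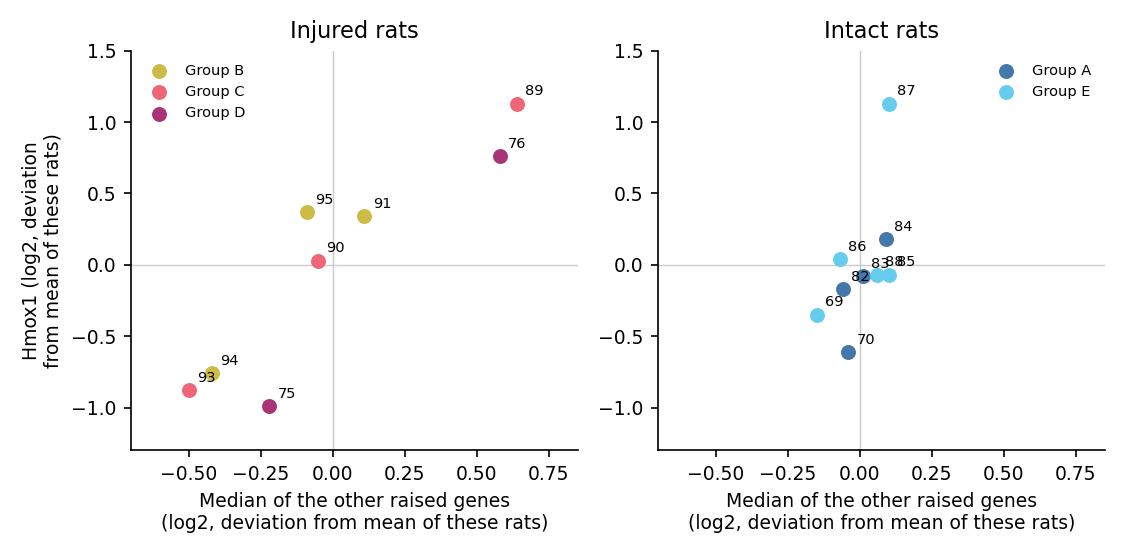
Hmox1 against the median of the 1076 other genes raised by injury, both in log2 as deviations from the mean of the rats shown, for 8 injured rats on the left and 9 intact rats on the right; points are rats, with their numbers. Rats 89 and 76 are highest on both axes and rats 93, 94 and 75 lowest, whereas intact rats hardly differ along the horizontal axis.

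The genes whose pattern over the 17 rats lay nearest to that of Hmox1 are given as a description. Nearness was the root mean square difference in log2(CPM + 0.5) after each gene was centered on the 17 rats, among 14514 genes whose mean reached 1 CPM. The nearest gene was ENSRNOG00000012779, with a root mean square difference of 0.371, and the next was ENSRNOG00000010208, at 0.41. Neither is paired with a name in the sources used here, and the 10 nearest held no named gene. ENSRNOG00000012779 had 1.02 to 3.47 CPM in intact rats and 14 to 96.8 CPM in injured rats. Its highest values, 96.8 and 69.8 CPM, were in rats 89 and 76, and its lowest among injured rats, 14 and 16.6 CPM, were in rats 94 and 93. The 10 genes had differences of 0.371 to 0.505 and rises of 3.73 to 5.55 in injured against intact rats on the log2 scale. Rat 89 was the highest for 6 of them and rat 76 for 4, while the lowest injured rat was 93 for 5 and 94 for 5. None had its lowest injured value in rat 75, where Hmox1 was lowest. Since these genes were picked for their small distance from Hmox1 over the same rats, both their rise and their likeness in the order of rats follow from the choice.

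**Figure D4:**
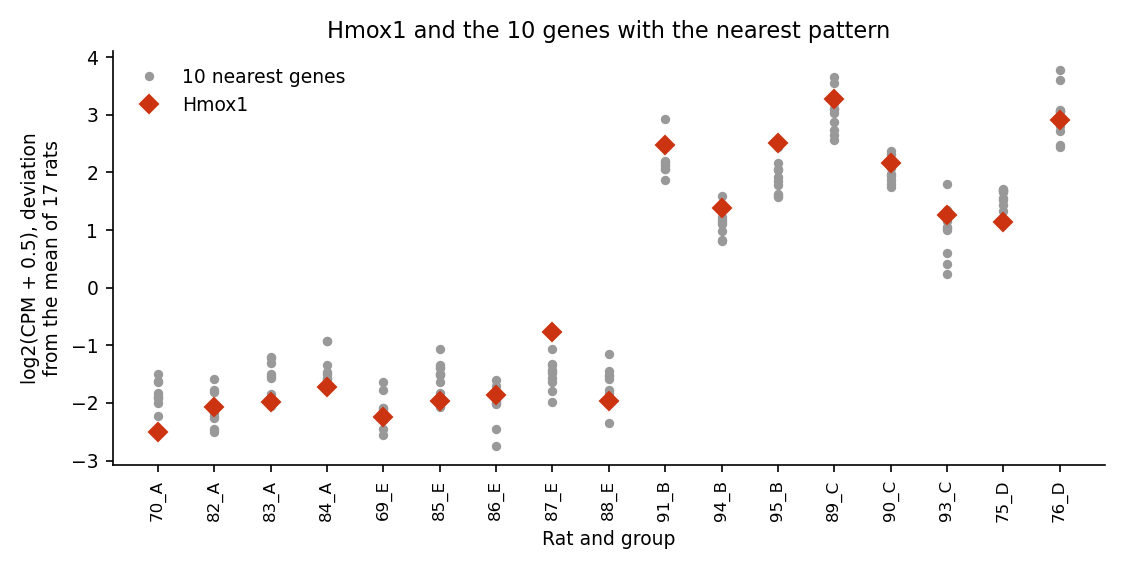
Hmox1 (red diamonds) and the 10 genes nearest to it in pattern (gray circles), in log2(CPM + 0.5) as deviation from each gene's mean over the 17 rats, by rat and group. All 11 genes separate injured from intact rats, and each has its highest value in rat 89 or rat 76.

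Hmox1 acts on heme, most of which enters tissue in red cells, and the erythroid and neutrophil lists were the only ones matched in full. Of 17 lists of genes for heme and iron handling, NRF2 targets and cell types, with 111 symbols, 13 had no gene with a known identifier. Among them were the lists for uptake of hemoglobin, for storage and export of iron, for NRF2 targets and for macrophages. The erythroid list matched 8 of 8, the neutrophil list 6 of 6, the heme synthesis list 1 of 9 and the heme degradation list only Hmox1 itself. These matches exist because the study singled the genes out in these same rats for their response to stimulation or pimozide, so they are no independent evidence of direction. In injured against intact rats, where 7.35% of genes were called, 0 of the 8 erythroid and 0 of the 6 neutrophil genes were called, with median log2(FC) of -0.22 and 0.27 against -0.03 over all genes tested. Of the 14 genes none had an unadjusted p under 0.05 in that contrast by edgeR, the smallest being 0.23, and DESeq2 called 0.

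The contrast of injured with intact rats averaged groups whose medians had opposite signs. The median over the 8 erythroid genes was -1.18 in ±SCI(0), with all 8 lower in group B, -1.38 in group D against group A and 0.72 in ±st/SCI(0), all against group A. Against group E the medians were smaller for B and D, at -0.35 and -0.54, and larger for C, at 1.67. In ±SCI(0) Hba-a1 had a log2(FC) of -1.11 and Hbb of -1.14 (edgeR adjusted p = 0.13 and 0.14). By the quasi-likelihood test 0 of the 8 were called there, with 4 at an unadjusted p under 0.05, and by DESeq2 0, whereas the pairwise exact test called Hba-a1 and Hbb lower. In D against A, where 8.07% of genes were called, Hbb-b1, another beta chain, was called lower at -1.57 (edgeR adjusted p = 0.043). The medians over the 6 neutrophil genes were -0.92 in ±SCI(0), -0.28 in D against A and 1.64 in ±st/SCI(0), and against group E they were -0.51 for B, -0.15 for D and 1.76 for C. Between injured groups, the erythroid and neutrophil medians were 1.98 and 2.36 in ±st(SCI) and -1.98 and -2.04 in ±pim(st/SCI). These are the contrasts for which the study singled the genes out, and the quasi-likelihood test called 0 of them in either.

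No rise like that of Hmox1 was detected in the hemoglobin genes when all injured rats were set against all intact ones. Hbb, the beta chain of hemoglobin, had a log2(FC) of -0.38 in injured against intact rats (SE 0.304, edgeR adjusted p = 0.33). Hba-a1, an alpha chain whose reads may be shared with the near-identical Hba-a2, had -0.33 (SE 0.292, edgeR adjusted p = 0.37). Alas2, which starts heme synthesis in red cell precursors, had -0.10 (SE 0.315, adjusted p = 0.81 by that edgeR test). Mpo and S100a8, granule and calprotectin genes of neutrophils, had 0.47 and 0.40 (adjusted p = 0.41 and 0.55 by edgeR). In ±SCI(st), where 8.31% of genes were called, 7 of 8 erythroid and 3 of 6 neutrophil genes were called and so was Alas2, all higher in group C. These 11 of 15 became 7 without rat 90, 93 or 86. By the same edgeR test 0 of the 15 were called in ±SCI(0), with 5.3% of genes called, and 0 in ±st/SCI(0), with 7.13%. The former became 4 without rat 70 and 2 with the pairwise exact test. The latter became 6 without rat 84, 2 without rat 93, 2 with total counts, 1 with DESeq2 and 4 with the exact test, and 5 of the 15 had an unadjusted p under 0.05.

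In each injured group, the rat with the least Hmox1 had the most Hba-a1. The same held for 5 of the 8 erythroid genes, all 4 globin genes and Slc4a1 among them, and not for Ahsp, Rhag and Hemgn. In group C those 3 were highest in rat 90 rather than rat 93, at 6.63, 1.93 and 5.43 CPM. In group C, Hba-a1 was at 635 CPM in rat 93, 266 in rat 90 and 210 in rat 89, whose Hmox1 stood at 108.6, 204.5 and 438.1 CPM. In group B, Hba-a1 was at 147 CPM in rat 94, 117 in rat 95 and 101 in rat 91, against Hmox1 of 117.6, 258.4 and 253.2 CPM. In group D, it was at 115 CPM in rat 75 and 84.9 in rat 76, against Hmox1 of 100.1 and 339.9 CPM. The deviations from group means correlated with r = -0.842, which gave p = 0.056 by exact permutation within groups (adjusted p = 0.11 over 6 relations) and so missed the threshold. Over the 8 injured rats without regard to group, where group C holds the 3 highest values of Hba-a1, r was -0.338 and rho -0.262 (exact permutation p = 0.43 and 0.54, adjusted p = 0.54 and 0.68), with 0.125 for r without rats 90 and 93 and -0.448 in the 6 rats of the later number series. In the 9 intact rats r was 0.181 and rho 0.033 (exact permutation p = 0.67 and 0.95, adjusted p = 0.67 and 0.95), with r at -0.196 without rats 70 and 86 and -0.133 in the 7 rats of the later series.

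In the intact rats, S100a9, a calprotectin subunit of neutrophils, was set beside Hmox1. It was chosen from the 6 neutrophil genes after the data were seen, and the adjusted p-values do not count that choice. Rat 87, the intact rat with the most Hmox1, also had the most S100a9 of these rats, at 34.2 CPM, and rat 70, with the least Hmox1, had the least, at 1.77 CPM. Of the 6 neutrophil genes, 3 were highest in rat 87 (S100a8, S100a9 and Ngp) and 3 in rat 84 (Mpo, Camp and Elane), while 3 were lowest in rat 70. Rat 70 also had the lowest value among intact rats of 7 of the 8 erythroid genes, with Hba-a1 at 74.6 CPM and Slc4a1 at 1.98 CPM. Mpo was at 5.43 CPM in rat 84 and 3.1 CPM in rat 87. For S100a9, over the 9 rats r was 0.77 (exact permutation p = 0.0024, adjusted p = 0.006 over 5 relations) and rho 0.817 (exact permutation p = 0.011, adjusted p = 0.027). Without those 2 rats r was 0.679 with an exact permutation p of 0.087, and among the 7 intact rats of the later number series r was 0.628 with an exact permutation p of 0.1, so that the relation passed the threshold in neither of these smaller sets. For deviations from group means r was 0.78 (p = 0.0076 by exact permutation within groups, adjusted p = 0.046 over 6 relations). In the injured rats, S100a9 fell into separate ranges, 32.6 to 52.4 CPM in group C and 6.73 to 13.0 CPM in groups B and D. Their pooled value is not given and was not among the 5 relations adjusted together. For deviations from the means of groups B, C and D r was 0.129 (p = 0.82 by exact permutation within groups, adjusted p = 0.82). The part of neutrophils or other blood cells in the Hmox1 of intact cords was not tested.

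**Figure D5:**
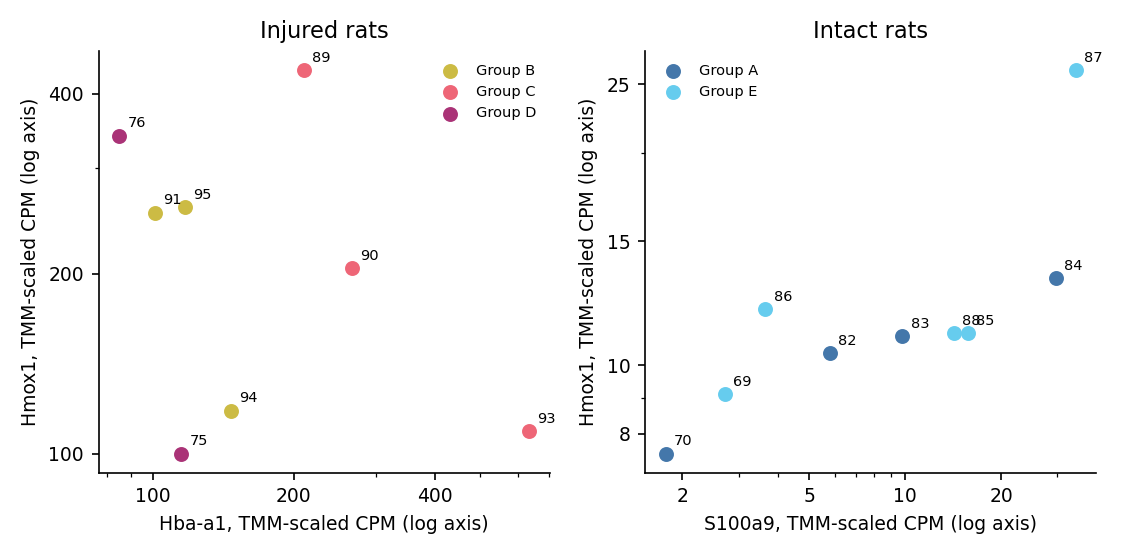
Hmox1 against Hba-a1 in the 8 injured rats (left) and against S100a9 in the 9 intact rats (right), in TMM-scaled CPM on log axes; points are rats, colored by group and numbered. On the left the lowest Hmox1 of each group comes with its highest Hba-a1, and on the right rats 70 and 87 lie at the 2 ends of both axes.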

How the data were processed

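Gene counts came from the spinal cords of 17 rats, 1 library each, which the letter in each title assigned to 1 of 5 groups. The authors trimmed the single-end reads, aligned them with STAR and counted them per Ensembl gene with STAR's GeneCounts, and deposited whole-number counts without normalization. The submitters' processing notes list bcl2fastq 1.8.4, Trim Galore 0.4.1 and STAR 2.5.0a. The notes and the paper name different genome builds, so no coordinates are given. The strandedness column used for counting is not given in the sources used here. Each sample was a separate rat, and the rat numbers pair no samples.

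Counts were analyzed in R 4.3.3 with edgeR 4.0.16 and DESeq2 1.42.0, and summarized in Python 3.11.15 with scipy 1.17.1. The edgeR model held a coefficient for each group, with TMM scaling and filterByExpr, and contrasts were tested with glmQLFTest and adjusted over the 15460 genes. It was also run on counts simulated from its own fitted spread, which does not check how well it describes these rats. The SE is the log2(FC) divided by the root of F, and 95% intervals use the test's degrees of freedom. A pairwise exact test, with TMM or total-count scaling, DESeq2 and the other settings below were alternatives. Relations between genes used log2(CPM + 0.5), and p-values were enumerated over all pairings.

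The gene, the lists and the tests were chosen with earlier results of these data known. The rule names Hmox1, 14 genes of heme and iron handling of which none had an identifier, the 2 members of each other list with the largest absolute log2(FC) between injured and intact rats, and the 10 nearest genes, of which 2 are printed because they carry no names. Names of 99 further genes came from the identifier column of a supplementary table of the paper, since the annotation used here pairs no Ensembl identifiers. The lists without a match covered heme and hemoglobin uptake, iron storage and export, iron uptake, heme export, regulators of Hmox1, NRF2 targets, heat shock and metal stress, macrophages and microglia, endothelium, neurons, oligodendrocytes, astrocytes, and peripheral nerve and muscle. The planned relations to Cd68, Cd163, Fth1 and Nqo1 could therefore not be computed, and S100a9 and the genes raised by injury were added as partners after the data were seen.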

Additional observations from a re-analysis of the deposited data

Results flagged for a closer look

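Hmox1 in rat 87 of group E, at 26.2 CPM, stood apart from the other 4 rats of that group, of which the nearest was at 12.04 CPM. The gap was 0.828 of the group's range, above Dixon's critical value of 0.71 for 5 rats. The same rat had the highest S100a9 of the intact rats, at 34.2 CPM. Elane, a neutrophil protease gene, stood apart in rat 84 of group A, at 2.27 CPM against 0.19 CPM in the nearest rat, with a gap of 0.916 of the range. These were 2 of 34 group-wise checks of Hmox1, the matched genes and the median of the genes raised by injury, in groups A and E, and chance flags about 1 in 20 such groups.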

How the results depend on the processing

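The rise of Hmox1 in the 4 contrasts of injured with intact rats was called in all 76 refits, with log2(FC) from 3.51 to 4.94 and adjusted p of at most 0.00048. They used DESeq2, the exact test, other scalings, filters and dispersions, a term for the number series, the groups of the contrast alone, and each rat left out. When single rats were dropped, the log2(FC) ran from 4.13 to 4.60 in ±SCI(0), 3.89 to 4.94 in ±st/SCI(0), 3.51 to 4.55 in ±SCI(st) and 3.85 to 4.43 in injured against intact rats. In the contrasts of stimulation and of pimozide and in the interaction of stimulation with injury, 0 of 73 refits called Hmox1, with adjusted p of 0.61 to 1. After dropping single rats they ranged from -0.42 to 0.63 for stimulation of injured rats, -1.32 to 0.49 for pimozide, -0.81 to 0.24 for the interaction and, with no change of sign, 0.04 to 0.52 for stimulation of intact rats. The sign turned in ±st(SCI) without rat 94 (-0.03) or 89 (-0.42), in ±pim(st/SCI) without rat 89 (0.49) or 75 (0.44) and with a term for the number series (0.48), and in the interaction without rat 91 (0.03), 95 (0.05), 93 (0.24) or 87 (0.22). At 72 or more Hmox1 counts in every rat, no library was near the limit of detection. The number of called pairs of groups, refitted with total counts and without each rat, was 6 of 10 each time. Of the 15 other list genes, the number called in ±st/SCI(0) was 0 and became 1 with DESeq2 and 2 with scaling to total counts. The pairwise exact test, added for these genes after the data were seen, called 2 in ±SCI(0), 13 in ±st(SCI) and 4 in ±st/SCI(0) with either scaling, and 9 (TMM) or 10 (total counts) in ±pim(st/SCI), where the quasi-likelihood test called 0 in each. Leaving out single rats gave 0 to 4 in ±SCI(0), with 4 without rat 70, 0 to 6 in ±st/SCI(0), with 6 without rat 84 and 2 without rat 93, and 7 to 12 in ±SCI(st), where 11 were called with all rats and 7 without rat 90, 93 or 86. Leave-one-out gave 0 to 0 such calls in the other contrasts. The relation of Hmox1 to the genes raised by injury in intact rats passed the threshold with total counts (r = 0.633, exact permutation p = 0.047); other pseudocounts and deviations from group means changed no unadjusted call, but for the genes raised by injury in injured rats the adjusted p went from 0.006 to 0.084 with deviations from group means (p = 0.028 by exact permutation within groups). No paired analysis was possible because each rat has a number of its own. The cause of these changes was not tested.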
